A study of Mus musculus with 6 samples.

Results

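The neutrophils described here are the cells that the authors' deposited annotation calls Ly6C+Ly6G+. They numbered 352 of 13052 immune cells (2.70%) enriched from mouse brain. The cells came from female C57BL/6 mice of 12 weeks (young) or 72 weeks (aged). Mice received vehicle and kept their gut microbiota (control), or received antibiotics that depleted it (antibiotic). The 24 mice, 6 per group, were combined into 12 pools, 3 per group, so a pool held 2 mice and was the replicate. Brains were perfused with saline, dissociated with papain and enriched for immune cells on a Percoll gradient, so cells that stick to vessels or sit in the meninges may be among those sampled. CITE-seq read RNA and antibody tags of the same cells. All 6 young pools shared a well and all 6 aged pools a different one, so age and well cannot be told apart. Hashtags 1 to 3 marked control pools and 4 to 6 antibiotic pools in both wells, so hashtag and treatment cannot be told apart either.

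Neutrophils are short-lived phagocytes made in the bone marrow. Their granule proteins are made in sequence during maturation. Azurophil (primary) granule enzymes such as myeloperoxidase come first, then the contents of specific (secondary) granules such as lactoferrin, then gelatinase (tertiary) granules and secretory vesicles. Late maturation and release into blood go with the chemokine receptor Cxcr2 and the G-CSF receptor Csf3r, while most granule transcripts are switched off. The surface protein Ly6G marks mouse neutrophils, and Ly6C is carried by neutrophils and at higher levels by classical monocytes. The comparison classes were the authors' Ly6CHigh cells (389) and Ly6CLow cells (634).

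The class name refers to antibody tags, short DNA sequences that stand for the antibody in the sequencing library. The tags that separate the neutrophils from the other classes are shown 5′ to 3′ in lower case, and no part is singled out. The c-kit tag is shown too, as the tag most correlated with the granule score of young neutrophils described below.
Ly6G: acattgacgcaacta
Ly6C: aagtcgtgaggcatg
CD11b: tgaaggctcatttgt
CD24: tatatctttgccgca
CD117 (c-kit): tgcatgtcatcggtg
The Ly6G and Ly6C tags, which stand for related proteins, differed at 11 of their 15 positions.

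In the young well the neutrophils carried 36 to 1048 Ly6G tags per cell (median 253), and no Ly6CHigh cell had more than 24 or Ly6CLow cell more than 19. In the aged well the neutrophils carried 11 to 756 Ly6G tags (median 41, or 35 in those of at least 1000 raw UMIs) against at most 15 in Ly6CHigh and 7 in Ly6CLow cells. The ranges were thus apart in the young well and met in the aged well. Ly6C tags of the young neutrophils had a median of 519, between the Ly6CHigh median of 1951 and the Ly6CLow median of 230. The rule by which the authors drew the classes is not given here, and the tags may have been part of it, so tag differences between classes are given as description.

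**Figure D1:**
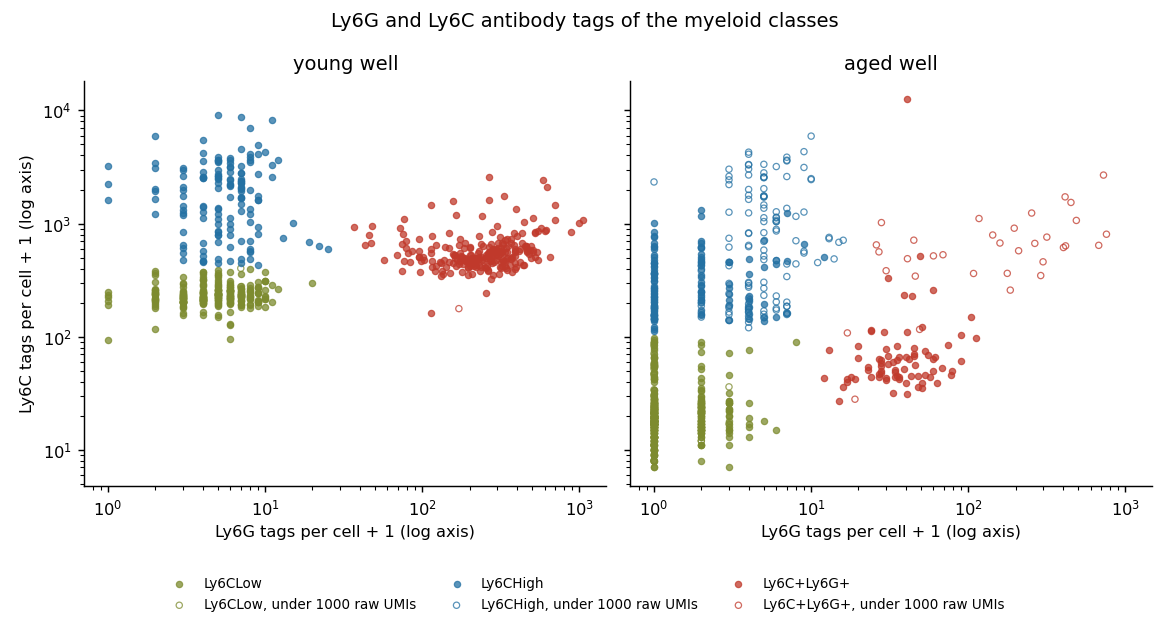
Antibody tags per cell plus 1 on log axes, Ly6G on the horizontal and Ly6C on the vertical axis, in the young well (left) and the aged well (right). Each point is a cell, coloured by class, and open points have under 1000 raw UMIs. Neutrophils lie to the right of both other classes, apart in the young well and meeting Ly6CHigh cells at 11 to 15 Ly6G tags in the aged well, and the open neutrophils of the aged well lie mostly above the filled ones.

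Some of the aged cells stand apart and touch every comparison by age. Of the 111 aged neutrophils, 33 had fewer than 1000 raw RNA molecules (UMIs) but a median of 10067 antibody tags, against 895 tags in the 78 deeper aged neutrophils and 6676 in the young neutrophils. Most of the 33 were in the third aged antibiotic pool (22 of its 41 neutrophils) or the first aged control pool (6 of its 7). Of the 33, 13 had a cell barcode that was also present in the young well. All 13 carried the same hashtag number in both wells, and 12 of them were neutrophils in both. Their antibody tags were 70.8% to 72.5% of those of the young cell with that barcode, while their raw UMIs had a median of 1.39% of it. Over all classes 59 barcodes occurred in both wells, 58 with the same hashtag number, and 26 of them were aged Ly6CHigh cells. Of the 247 aged Ly6CHigh cells, 125 were under 1000 raw UMIs. How these cells arose was not tested. The other 20 shallow aged neutrophils, without a shared barcode, had a median of 7669.5 tags.

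The corrected RNA values of these cells also differed from their raw totals. All 536 cells of the series under 1000 raw UMIs had more genes above 0 in the corrected table than in the raw count, against 15.5% of the other cells. In the shallow aged neutrophils the corrected values of the 8 microglia genes listed summed to 23.3 per cell, against 2.55 in the deeper ones, and Retnlg averaged 6.06 against 146. Most class comparisons and several RNA contrasts are therefore given with and without them. Neutrophil shares are given both ways, but tests of shares and of tags between groups only with them.

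**Figure D2:**
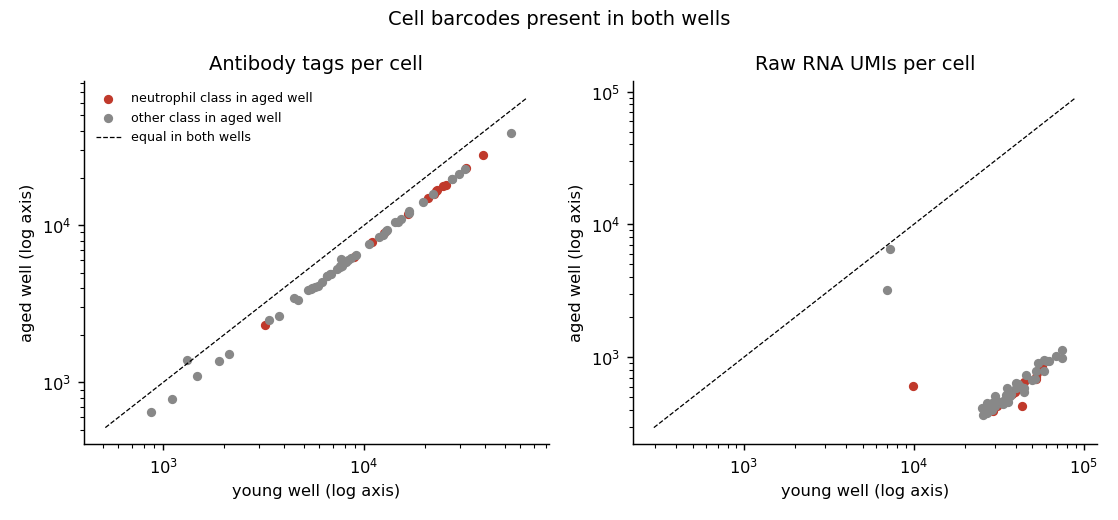
Antibody tags (left) and raw RNA UMIs (right) of the 59 barcodes found in both wells, young well on the horizontal and aged well on the vertical axis, both log scaled. The dashed line marks equal values, and red points were neutrophils in the aged well. Tags lie just under the line, near 71.8% of the young value, while most UMI totals lie far under it.

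The RNA fitted the label. S100a8 and S100a9, the subunits of calprotectin, were above 0 in 99.7% of the neutrophils, and Retnlg, a resistin-like protein of neutrophils, in 91.5%. Cxcr2 was above 0 in 77.8%, Camp (cathelicidin) in 74.4% and Ngp (neutrophilic granule protein) in 78.7%. In microglia, which should lack these genes, the shares were 27.5% for S100a8, 46.1% for S100a9, 5.93% for Retnlg, 0.415% for Cxcr2 and 13.3% for Camp, at a median of 6934 raw UMIs against 9232 in neutrophils. S100a8 and S100a9 RNA therefore had a sizeable background in other cells, and Cxcr2 and Retnlg had little. Of the 352 neutrophils, 344 fell in 1 of the authors' RNA clusters, cluster 4. The 8 others averaged 121 for S100a8 against 761 inside, and 1 of them had none.

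Cluster 4 also held 77 cells of other classes, among them 23 called B cells and 23 called microglia, 14 of these microglia from the third young antibiotic pool. Median Ly6G tags in the young and aged well were 301 and 50 in these B cells and 153 and 11.5 in these microglia. The neutrophils of the cluster had 251.5 and 40.5. These B cells averaged 478 for S100a8 and 205 for Camp, with the B cell gene Cd79a above 0 in 34.8%. These microglia averaged 526 and 147, with P2ry12 above 0 in 82.6%. The neutrophil class and its shares leave these cells out. A further 25 were called Ly6CHigh, and their corrected values included genes of early granulocytes. They averaged 331 for Camp and 249 for Ngp, and also 16.2 for Elane, 11.2 for Prtn3 and 5.96 for Mpo, the primary granule enzymes, and 4.04 for Mki67, a gene of dividing cells. The neutrophils averaged 0.136 for Elane, 0.259 for Prtn3, 0.0199 for Mpo and 0.486 for Mki67. The 25 cells had few Ly6G tags, with medians of 14 in the young and 6.5 in the aged well, and a median of 587 raw UMIs. At under 1000 raw UMIs the corrected table held more genes above 0 than the raw count, as given above. Microglial P2ry12 was above 0 in 60% of the 25 and in 30.5% of the neutrophils of cluster 4. The part of depth in their RNA was not tested. Camp and Ngp averaged 0.198 and 0.121 in the other 364 Ly6CHigh cells, so the Camp and Ngp RNA of that class lay almost wholly in these 25. Chil3 (34.7), Prtn3 (4.06), Elane (3.55) and Mpo (2.19) were also present in the 364.

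Neutrophils were compared with each other class inside the same pool, over the 9 pools with at least 10 neutrophils. Values are the authors' corrected UMI values averaged per pool, differences are log2 after adding 0.1, and a gene was called higher or lower if it differed at least 2-fold on average with the same sign in every pool. The classes were drawn by the authors on these same cells, so the calls are description and carry no p. Against Ly6CHigh cells 276 of 6226 genes (4.43%) were higher and 1158 (18.6%) lower, and the median over all genes was −0.48. Against Ly6CLow cells 398 of 6224 (6.39%) were higher and 975 (15.7%) lower, with a median of −0.39.

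The neutrophil class had fewer raw UMIs per cell than Ly6CHigh cells. The difference of the pool medians was −0.55 on the log2 scale (SE 0.21), lower in 8 of 9 pools (exact sign-flip permutation test, two-sided p = 0.0195). With pools of at least 20 cells of both classes it was −0.20 (exact permutation p = 0.188), where too few pools remained for this test to go under 0.05. Without the cells under 1000 UMIs it was −0.66 (SE 0.16), lower in 9 of 9 (exact permutation p = 0.00391, the smallest this design allows). Against Ly6CLow it was −0.63 (SE 0.44, exact permutation p = 0.160). Without the cells under 1000 UMIs that was −0.24 (SE 0.18, exact permutation p = 0.207), and it was also −0.24 without the third aged antibiotic pool, while it passed at −0.86 without the second aged control pool (exact permutation p = 0.00781). Against Ly6CHigh it was −0.69 in the 5 young pools and −0.38 in the 4 aged pools. The part of depth in the gene differences was not tested.

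The 12 genes highest against Ly6CHigh cells included genes of mature neutrophils and of granules. Retnlg ran from 69.3 through a median of 116 to 201 over the neutrophil pools and from 0 to 0.375 in Ly6CHigh cells, with no overlap. The difference was 9.37 (SE 0.25, n = 9 pools). Mmp9, the gelatinase of tertiary granules, ran from 7.83 through 12.6 to 15.7 against at most 0.15, a difference of 6.70 (SE 0.19). Ly6g RNA ran from 2.60 through 5.50 to 8.93 against at most 0.25, a difference of 5.25 (SE 0.23), in the same direction as its tag. Cxcr2 ran from 1.07 through 2.50 to 3.86 against at most 0.0244, a difference of 4.54 (SE 0.17). The other genes among the 12 highest were S100a9, Ltf, G0s2, Hdc, Ngp, S100a8, Camp and Wfdc21, at 4.45 to 5.51.

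Of the 12 genes of the mature neutrophil list, 10 were higher than in Ly6CHigh cells and 12 than in Ly6CLow cells. Csf3r averaged 3.58 ± 1.72 (SD, n = 9) against 0.575 ± 0.134 in Ly6CHigh cells, a difference of 2.30. Il1r2, a decoy receptor for interleukin-1, differed by 3.75 and Mxd1, a repressor of the Myc network, by 4.02. The chemokine gene Ccl6 differed by −0.28 from Ly6CHigh and by 1.27 from Ly6CLow cells.

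Secondary granule genes were also high, with a wide spread between pools. Camp ran from 40.5 through a median of 138 to 344 over the neutrophil pools and from 0 through 22.2 to 50.9 in Ly6CHigh cells, so the ranges met. Within every pool it was higher in neutrophils, by 4.50 (SE 1.17). Ltf (lactoferrin) ran from 12.5 through 41.8 to 88.2 against 0 through 1.54 to 6.90, a difference of 5.30 (SE 0.67). Of the 10 genes of this list 8 were higher than in Ly6CHigh cells. Chil3, a chitinase-like protein also made by monocytes, was not, at 32.4 ± 20.3 against 42.7 ± 16.3 (SD, n = 9). It was 4.96 (SE 0.47) above Ly6CLow cells, against which 8 of the list were higher. The 25 Ly6CHigh cells of cluster 4 are part of the Ly6CHigh values.

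Primary granule genes were near 0 in the neutrophils. Prtn3 (proteinase 3) ran from 0 through 0.0435 to 0.679, against 0.643 through 3.94 to 6.29 in Ly6CHigh cells, a difference of −4.01 (SE 0.45), and it was the only 1 of 6 called lower. Elane (neutrophil elastase) was −2.68 (SE 0.87) and Mpo −2.18 (SE 0.75) with pools of both classes at 0. Bpi was at 0 in the 9 pools of both classes and failed the filter on low values, so 5 of the 6 were kept. Against Ly6CLow cells 0 of the 6 were kept and none was called. Genes of cell division followed the same direction against Ly6CHigh cells, with 9 of 10 lower. Mki67 ran from 0 through 0.435 to 0.867 against 0.417 through 1.62 to 2.93, a difference of −2.09 (SE 0.30). Hmgb2, a chromatin protein also kept by neutrophils, was level with Ly6CHigh cells (−0.04, SE 0.07), and it was the 1 gene of the list called higher than in Ly6CLow cells.

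Tertiary granule and secretory vesicle genes were higher in 6 of 10 cases against Ly6CHigh and in 8 of 10 against Ly6CLow cells. Besides Mmp9 these included Adam8, a membrane protease, at 3.05, and the formyl peptide receptors Fpr1 at 3.24 and Fpr2 at 2.44 against Ly6CHigh cells. Cd14 was −0.65 (SE 0.18) and not called. Alpl was at 0 in each of the 9 neutrophil pools compared and Mmp25 was low, so 8 of the 10 passed the filter against Ly6CHigh and 9 against Ly6CLow cells. Of the 10 chemoattractant receptors 6 were higher and 1 lower than in Ly6CHigh cells. C5ar1, the receptor of complement C5a, was 2.59 (SE 0.29) higher, whereas Ccr2, which brings monocytes into tissue, was 4.68 lower (difference −4.68, SE 0.41).

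The NADPH oxidase, which makes superoxide, differed by subunit. The membrane subunits Cyba (0.01, SE 0.11) and Cybb (0.01, SE 0.23) were level with Ly6CHigh cells. The cytosolic subunit Ncf1 was 2.01 (SE 0.11) and the GTPase Rac2 1.11 (SE 0.06) higher, and these were the 2 of 6 called. Against Ly6CLow cells 4 of the 6 were higher, Ncf1, Ncf4 and Rac2 among them. Among the transcription factors, Cebpe, which drives secondary granule genes, was 2.13 (SE 0.47) above Ly6CHigh and 3.67 (SE 0.39) above Ly6CLow cells. Cebpa, which acts earlier, was −0.83 and −1.24 in these comparisons.

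Of the 12 inflammatory genes, 6 were higher than in Ly6CHigh cells. Cxcl2, a neutrophil-attracting chemokine, ran from 18.2 through 26.2 to 61.6 against 1.61 through 5.45 to 6.92, a difference of 2.84 (SE 0.32). Il1b ran from 9.76 through 27.3 to 58.9 against 3.19 through 9.46 to 12.5 and was higher in 8 of 9 pools, so it was not called (1.52, SE 0.32). Ccl3 was 1.89 lower than in Ly6CLow cells (difference −1.89, SE 0.30). Of 16 interferon response genes, 14 of them kept, only Ifitm1 and Slfn4 were higher in both comparisons. In each comparison 1 gene of this list was lower. The list medians were −0.46 against Ly6CHigh and −0.22 against Ly6CLow cells.

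Of the 12 monocyte genes, 5 were lower than in Ly6CHigh cells, and 6 were lower and 1 higher than in Ly6CLow cells. Fn1 (fibronectin) was the lowest of all genes against Ly6CHigh cells, at 0 to 0.610 against 6.01 to 18.0 per pool, a difference of −6.27 (SE 0.43). F13a1, Ccr2, Lgals1, Crip1, Prtn3, Ms4a4c, S100a10, S100a4, Ccl9, Ms4a6c and Vcan followed at −5.13 to −3.41. Against Ly6CLow cells the class II antigen presentation genes H2-Eb1, H2-Aa, H2-Ab1, H2-DMa and Cd74 were among the 12 lowest, at −5.35 to −4.06. All 8 sampled ribosomal protein genes were lower than in both classes, for example Rpl13 at 4.50 through 6.25 to 13.2 against 31.4 through 34.9 to 38.8 in Ly6CHigh cells (−2.38, SE 0.15).

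**Figure D3:**
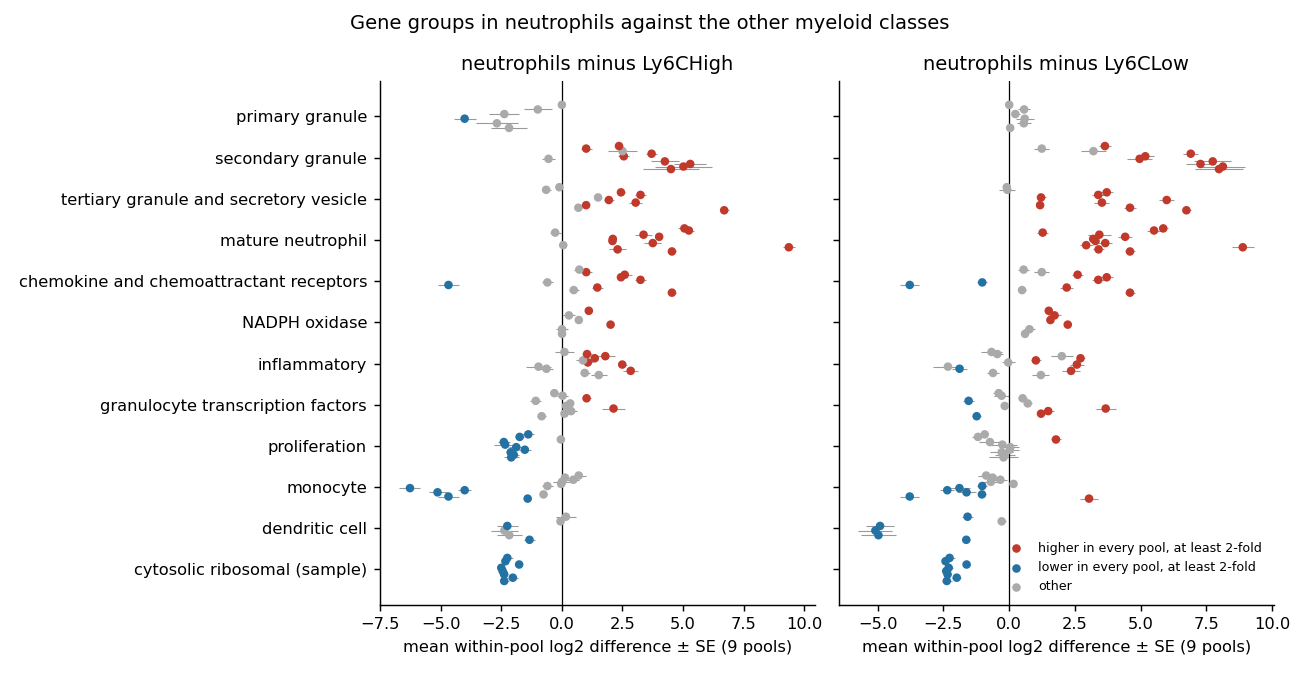
Mean within-pool log2 difference ± SE over 9 pools for each gene of 12 lists, neutrophils minus Ly6CHigh (left) and minus Ly6CLow (right). Each point is a gene, red if called higher, blue if called lower and grey otherwise. Most secondary granule and mature neutrophil genes lie to the right in both panels, with Chil3 and Ccl6 left of 0 against Ly6CHigh, and the ribosomal genes lie between −2.50 and −1.76 on the left.

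These differences barely moved without the cells under 1000 raw UMIs, with Retnlg at 9.44, Camp at 4.41, Cxcr2 at 4.66 and Prtn3 at −3.71 against Ly6CHigh cells. Mpo moved most of those named, from −2.18 to −1.15. With 0.5 added in place of 0.1, the counts against Ly6CHigh fell to 122 higher and 328 lower, and against Ly6CLow to 194 and 278.

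Among the 34 antibodies, 3 (8.82%) were at least 2-fold higher than in Ly6CHigh cells in every pool and 0 were lower (0%). The Ly6G difference was 5.46 (SE 0.09, n = 9 pools) on the log2 scale of tags relative to the other tags of the pool. CD11b, an integrin of myeloid cells, differed by 1.42 (SE 0.25) and CD24, a sialoglycoprotein high on neutrophils, by 1.51 (SE 0.18). Median tags of CD24 were 1128 in young neutrophils, 170 in young Ly6CHigh and 167.5 in young Ly6CLow cells. Ly6C was 1.35 below Ly6CHigh cells (difference −1.35, SE 0.44), lower in 8 of 9 pools and so not called. The remaining pool was at 1.86. In the first aged antibiotic pool the 12 neutrophils held 13485 Ly6C tags in sum at a median of 48.5. The highest aged neutrophil alone held 12513. The part of single cells in this difference was not tested. Against Ly6CLow cells 5 antibodies (14.7%) were higher, namely CD11b, CD44, Ly6C, Ly6G and CD24, with Ly6G at 6.10 (SE 0.11). The 4 lower (11.8%) were CD11c, CD86, CD103 and I-A-I-E, the class II protein. I-A-I-E differed by −3.69 (SE 0.70), the same direction as the class II RNA. Without the shallow cells the Ly6G values were 5.47 and 6.12, and CD11b against Ly6CLow fell from 1.14 to 0.96.

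Within the class, neutrophils ran from cells rich in secondary granule RNA to cells with little of it. A score summed log2(value + 1) of Camp, Ngp, Ltf, Lcn2 and Chil3 in each cell and ran from 0 to 42.5. Its range was divided at 14.2 and 28.3 into 3 equal bands, which held 121, 76 and 155 cells. The bands are ranges of a continuous score, with 10 cells within 1 unit of the lower and 18 within 1 unit of the upper division. Of the 76 middle cells, 29 were shallow. In the 318 cells of at least 1000 raw UMIs the bands held 117, 47 and 154, so most cells lay in the outer bands. Camp averaged 0.835 in the low and 330.4 in the high band, which the score fixes. The share of low-band cells above 0 was 76.9% for Lcn2, 38.0% for Ngp, 25.6% for Camp and for Chil3, and 8.26% for Ltf.

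Genes outside the score followed it in 2878 genes ranked by Spearman's correlation with the score over the cells, whose median was 0.02. The cells share pools, wells and depth, so the correlation is description. It was 0.5 or more for 77 genes and −0.5 or less for 54. Anxa1 (annexin A1), a regulator of inflammation stored in granules, was highest at 0.88, with a mean of 3.76 in the low and 33.8 in the high band. Serpinb1a, an inhibitor of granule proteases, followed at 0.85 and was above 0 in 7.44% of the low and 98.7% of the high band. Wfdc21, Arhgdib, S100a8, Aldh2, S100a9, Ifitm6, Cybb and Tkt completed the 10 highest, at 0.78 to 0.85. Cebpe had a correlation of 0.74. Of the other ranked genes on the secondary granule list, Cd177, a surface protein of neutrophils, was at 0.78. Ltb4r1, which is also on the chemoattractant receptor list, was at 0.78. Mmp8 was at only 0.31 (−0.04 to 0.63 by pool) and was above 0 in 75.2% of the low band. Olfm4 was above 0 in 5.97% of the cells and was not ranked.

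Of all genes ranked, Dusp1, a phosphatase of MAP kinases, had the lowest correlation at −0.79, with a mean of 21.9 in the low and 2.50 in the high band. Junb, Btg2, Srgn, Selplg, Picalm, Ccl6, Pim1, Ftl1 and Clec4d followed at −0.76 to −0.67. Il1b had a correlation of −0.66 and averaged 68.9 in the low band against 5.99 in the high band. Csf3r had −0.63 and Cxcr2 −0.42, both falling as granule RNA rose. Of the 11 mature neutrophil genes ranked, 10 had a correlation under 0, while 1557 of all 2878 genes ranked were above 0. The exception was Trem3 at 0.54, above 0 in each of the 6 pools with at least 20 neutrophils. Retnlg, counted among the 10, did not follow the score (−0.07). Mki67 was above 0 in 2.48% of the low and 19.4% of the high band. Of the primary granule genes, Elane was above 0 in 1.65% and 5.16% and Prtn3 in 5.79% and 5.16%.

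In each of the 6 pools with at least 20 neutrophils the correlation of Anxa1 and Serpinb1a was above 0 and that of Dusp1, Junb and Il1b under 0. The score itself rose with raw UMIs, with a correlation of 0.64 over cells (0.17 to 0.85 by pool), and the median raw UMIs were 4439 in the low and 12912 in the high band. Among the 176 cells between the quartiles of raw UMIs (4175 to 13544), the correlation was 0.89 for Anxa1, 0.82 for Serpinb1a, −0.77 for Dusp1 and −0.60 for Il1b, while Mki67 fell from 0.35 to 0.15. Within these cells the score still had a correlation of 0.63 with raw UMIs, so the depth gradient was not removed. Microglial P2ry12 was above 0 in 49.6% of the low and 7.74% of the high band, and its part in the pattern was not tested.

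**Figure D4:**
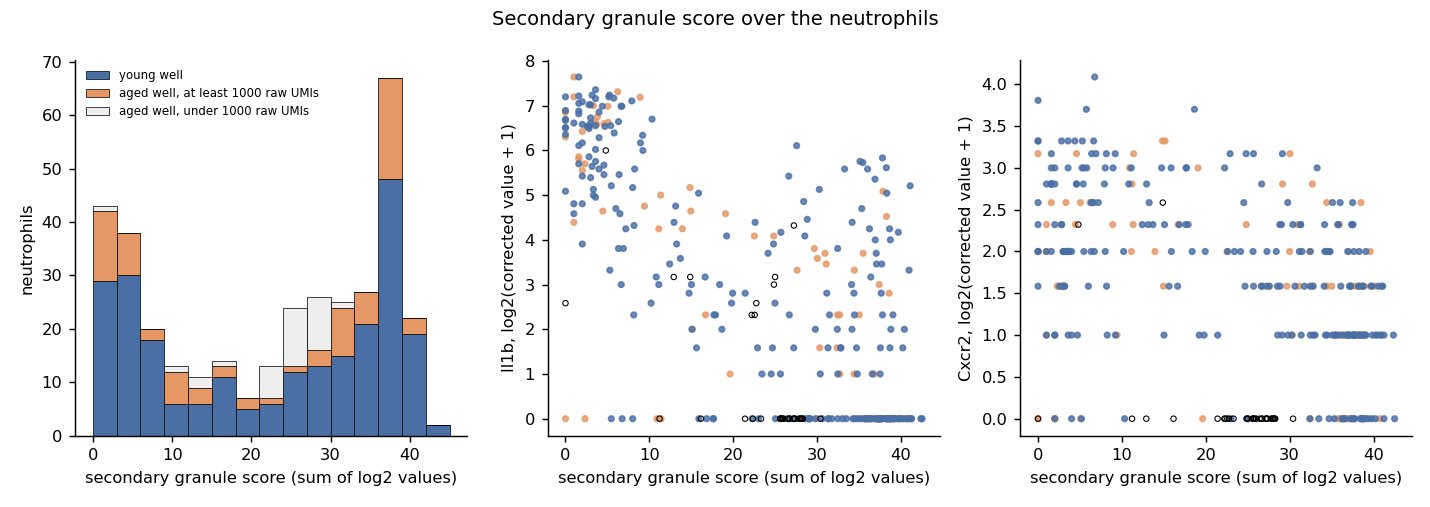
Left, number of neutrophils by granule score, stacked by well and depth. Middle and right, Il1b and Cxcr2 as log2(corrected value + 1) against the score, 1 point per cell, blue for young, orange for aged and open for cells under 1000 raw UMIs. Cells gather at both ends of the score, and Il1b averages 68.9 in the low and 5.99 in the high band.

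An antibody read on the same cells followed the score too. In young neutrophils the c-kit (CD117) tag, the receptor of stem cell factor carried by progenitors, had a correlation of 0.77 with the score (n = 241 cells), with medians of 4 tags in the low and 20 in the high band. By pool the correlation was 0.76, 0.75 and 0.81 in the 3 young pools of at least 20 neutrophils. Between the quartiles of raw UMIs it was 0.64 (n = 129 cells), where the score had a correlation of 0.55 with raw UMIs. As a share of each cell's tags the correlation was 0.77. In aged cells, whose c-kit medians were 1 and 2 tags, it was 0.24, and 0.45 as a share of tags. In the 78 aged cells of at least 1000 raw UMIs these were 0.41 and 0.51. Kit RNA was above 0 in only 1.65% of the low and 8.39% of the high band. The Ly6G tag went the other way, with medians of 314.5 and 191 in the young cells (correlation −0.40), as did CD11b (4293.5 and 2257, correlation −0.19) and CD86, a costimulatory protein (16 and 5, correlation −0.35). By pool the Ly6G correlation was −0.65 in the first young control, 0.15 in the third young control and 0.05 in the third young antibiotic pool. In the aged pools of at least 20 neutrophils it was −0.72, −0.67 and −0.23. As a share of each cell's tags it was −0.28 in young and 0.04 in aged cells.

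The promoters of the genes on the secondary granule list were read from RefSeq (GRCm38.p6), 250 bases before to 50 after the gene start, because 5 of these genes make up the score. The motif TTGCNNAA, or TTNNGCAA on the other strand, a loose form of the site that C/EBP factors bind, was found in 5 of the 10 genes (Ngp, Ltf, Lcn2, Mmp8 and Anxa1) and in 12.2% of all 27025 genes with such a window. Camp had no match. Matches are in capitals, and the windows of the gene with 2 matches and of lactoferrin are shown. Ngp lies at chr9:110419558-110419857 (+ strand) and Ltf at chr9:111019042-111019341 (+ strand).
Ngp: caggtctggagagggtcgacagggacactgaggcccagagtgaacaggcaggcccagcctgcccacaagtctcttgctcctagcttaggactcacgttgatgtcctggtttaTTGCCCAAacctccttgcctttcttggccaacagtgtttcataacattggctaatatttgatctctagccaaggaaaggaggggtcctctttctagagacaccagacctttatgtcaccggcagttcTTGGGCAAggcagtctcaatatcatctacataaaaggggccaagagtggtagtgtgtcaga
Ltf: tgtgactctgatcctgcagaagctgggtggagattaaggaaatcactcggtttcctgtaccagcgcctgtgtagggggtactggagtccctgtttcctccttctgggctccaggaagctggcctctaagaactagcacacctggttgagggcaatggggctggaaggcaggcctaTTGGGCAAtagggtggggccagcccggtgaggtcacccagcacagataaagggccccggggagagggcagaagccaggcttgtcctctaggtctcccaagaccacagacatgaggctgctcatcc
The first Ngp match begins 138 bases and the Ltf match 75 bases before the gene start.

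The share of neutrophils differed widely between pools of 1 group. It was 8.68%, 1.97% and 1.90% of the cells in the young control pools and 1.29%, 0.894% and 4.59% in the young antibiotic pools. It was 0.789%, 1.91% and 1.73% in the aged control and 1.30%, 0.577% and 4.30% in the aged antibiotic pools. The first young control pool was far above all others, and the third antibiotic pool was the highest of its group at both ages. Group means were 4.18% ± 3.89, 2.26% ± 2.03, 1.48% ± 0.602 and 2.06% ± 1.98 (SD, n = 3). Each group holds exactly 3263 cells, by a choice not described in the sources used here, so shares are within these cells.

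No difference in share passed the test. The antibiotic difference was −0.86 (log2, SE 0.82) in young and 0.45 (SE 0.85) in aged mice, with adjusted p of 0.736 and 0.727 (edgeR quasi-likelihood test over the 10 classes, of which 0 passed, 0%). The mean over both ages was −0.21 (SE 0.59, adjusted p = 0.768, edgeR), and the aged minus young difference of the antibiotic effect was 1.31 (SE 1.18, adjusted p = 0.867, edgeR). Aged minus young controls was −1.50 (SE 0.84, adjusted p = 0.486, edgeR), where 1 other class of 10 (10%) passed. An exact permutation test of the shares gave two-sided p of 0.5, 0.9 and 0.2 for young, aged and age, where 3 against 3 pools cannot go under 0.1. The direction rested on single pools, since the young difference was 0.26 without the first young control pool and the aged one −0.70 without the third aged antibiotic pool. Among cells of at least 1000 raw UMIs the share of that antibiotic pool fell to 2.33% and of the first aged control pool to 0.124%. As a share of cells other than microglia the age difference was −1.87 and passed (adjusted p = 0.0322, edgeR).

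**Figure D5:**
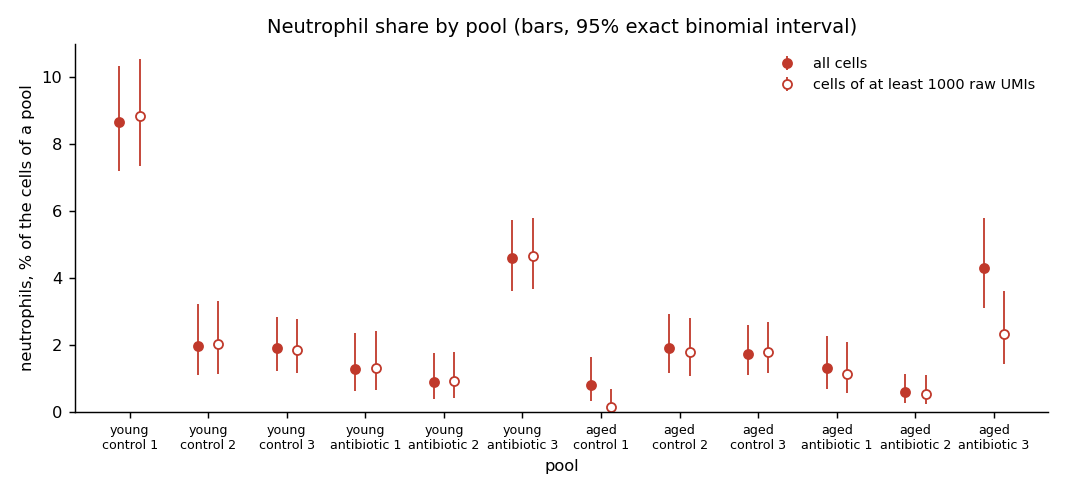
Neutrophils as a percentage of the cells of each of the 12 pools, over all cells (filled) and over cells of at least 1000 raw UMIs (open), with 95% exact (Clopper-Pearson) binomial intervals that cover counting error only. The groups overlap, and the largest drop between filled and open points is in the third aged antibiotic pool.

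Few neutrophil genes passed the test between antibiotic and control mice, with few cells behind each pool. Limma compared the 9 pools of at least 10 neutrophils, which left 5 young pools (3 of them controls) and 4 aged pools (2 of them controls). Of 5200 genes, 0 passed in young (0%), 1 in aged (0.0192%), 1 over both ages (0.0192%), 0 for the difference between the ages (0%) and 0 for aged minus young controls (0%). At an unadjusted p under 0.05 the counts were 212, 566, 439, 418 and 92. Fewer neutrophils with a transcript and less transcript per cell cannot be told apart in pool means.

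The 1 gene that passed was Dusp2, a phosphatase of MAP kinases induced on activation. It was at 0.75 and 0.957 in the 2 aged control pools compared and listed at 0 in both aged antibiotic pools, a fitted difference of −3.24 on the log2(value + 0.1) scale (SE 0.44, adjusted p = 0.00466, limma). Over both ages it was −1.92 (SE 0.30, adjusted p = 0.0272, limma), while in young mice the pools overlapped, at 0.75, 1.27 and 1.61 against 0.9 and 0.589. The smaller pools went the other way, with 0 in the first aged control pool (7 cells) and 1.5 in the second aged antibiotic pool (8 cells). The aged call ended without the second (adjusted p = 0.107) or the third aged control pool (adjusted p = 0.304, both limma) and without the first aged antibiotic pool (adjusted p = 0.0804, limma). The call over both ages lasted only without the first young control or the third young antibiotic pool. It ended without any other pool, at an adjusted p of 0.0533 to 0.503 (limma). With pools of at least 5 neutrophils 0 genes passed in any of the 5 contrasts. Dusp2 still passed in aged mice among cells of at least 1000 raw UMIs (adjusted p = 0.00569, limma).

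Granule and maturation genes were not called in any contrast. Camp was 166, 344 and 118 in young control against 40.5 and 185 in young antibiotic pools, which overlapped (−1.12, SE 0.55, adjusted p = 0.867, limma). Cxcr2 was 3.04, 1.07 and 3.00 against 2.50 and 3.86 (0.51, SE 0.42). The 10 genes on the secondary granule list had a median of −0.87 in young and −0.42 in aged mice, beside 0.16 and −0.27 over all genes tested. The pool medians of the granule score ran from 3.17 in the first young antibiotic to 37.4 in the second young control pool. Of the 11 interferon response genes tested, 7 had an unadjusted p under 0.05 in aged mice and 0 were called, with a median of −0.91. Isg15 was 0.1 and 1.26 in aged control against 0 and 0.0976 in aged antibiotic pools. The microglia genes had a median of 1.25 there, and the shallow cells lie mostly in 1 of these antibiotic pools. Among cells of at least 1000 raw UMIs 2 of the 11 interferon response genes had an unadjusted p under 0.05, with a median of −0.56 beside −0.17 over all genes, and the microglia genes had a median of 0.16 and the secondary granule genes of −0.03.

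The count in young mice turned on 1 pool. Without the third young antibiotic pool, which leaves the first (10 neutrophils) as the lone sample of its group, assumed to vary like the others, 38 genes passed, 19 in each direction, and 37 over both ages. The 38 included Serpinb1a (−3.50), Wfdc21 (−2.39), Cebpe (−2.75), Ltf (−2.10) and Camp (−2.22) among those lower. The higher ones included class II genes such as Cd74 (3.79) and H2-Aa (3.86). In that first pool 7 of 10 cells were in the low score band, 2 of 10 were outside cluster 4, and H2-Aa was at 18.6 against at most 3.71 in the other 11 pools. Without the third aged antibiotic pool 8 genes passed in aged mice, all lower.

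The genes of smallest p that did not pass were Ccl4 (3.20, SE 0.68) and Adamts1 (2.09, SE 0.50) in young mice, both at an adjusted p of 0.867 (limma). Ccl4, a chemokine, was 0.884, 0.0667 and 0.957 in young control against 11.1 and 2.23 in young antibiotic pools. For the difference between the ages they were Clec4a3 (−3.48) and 2810403A07Rik (−2.84), both at an adjusted p of 0.576 (limma). For aged minus young controls they were Igkc (2.26), an antibody light chain of B cells, and Ccl4 (2.83), both at an adjusted p of 0.997 (limma).

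Antibody tags on neutrophils gave 0 of 34 calls for each of the 4 antibiotic contrasts (0%, edgeR quasi-likelihood test). Ly6G differed by 0.07 (SE 0.29) in young and −0.45 (SE 0.32) in aged mice. For aged minus young controls 1 of 34 (2.94%) passed, CD335, with 0 tags in every young pool and 4 and 20 tags in the aged control pools compared (adjusted p = 0.0366, edgeR). The difference between the wells was not particular to neutrophils. CD335 tags were on 22.5% of aged neutrophils, on 21.5% of aged and 1.41% of young Ly6CHigh cells, and on 11.1% and 0.365% of Ly6CLow cells. CD335 is 1 of 3 antibodies in the table that the described staining mix does not list. The others, CXCR4 and KLRG1, were on 0% of the young neutrophils, Ly6CHigh and Ly6CLow cells. The CD335 call ended without any 1 of the control pools, without the third aged antibiotic pool or with a minimum of 10 tags in 3 pools.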

How the data were processed

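CITE-seq cells of 12 pools were analysed. The deposited antibody table holds raw tag counts, and the authors' metadata give raw UMI counts per cell, classes, RNA clusters and hashtags. The deposited RNA values are a score, the authors' corrected UMI value (SCT) for 19848 genes, so no count model was run on them. Per the submitters' processing notes, Cell Ranger 3.0.2, Seurat 3.0.1 and mm10 were used. Every cell was a singlet in the deposited metadata, and 31 metadata columns were not used. Pool means were compared as log2(value + 0.1) with limma 3.58.1, keeping genes of a mean of at least 0.1. Tag sums and cell numbers were compared with edgeR 4.0.16 and, as an alternative, DESeq2 1.42.0 (R 4.3.3, Python 3.11.15). Adjustment was Benjamini-Hochberg with a threshold of 0.05. Steps were tested on simulated data. Named genes were the 12 highest and 12 lowest per class comparison, the 10 highest and 10 lowest score correlates, list members, and for each contrast those called or the 2 of smallest p. Named antibodies were up to 8 of largest difference, Ly6G, Ly6C, CD11b and those called. The c-kit tag and the genes named in leave-one-out fits were chosen after their values were seen. The cells, lists and tests were chosen with earlier results of these data known. Nothing says how pools were drawn, so p-values measure the spread between pools of 2 mice. Some list members are not reported here.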

Additional observations from a re-analysis of the deposited data

How the results depend on the processing

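No paired analysis was possible because hashtag numbers 1 to 6 do not pair control with antibiotic pools. The share of neutrophils turned direction when 1 pool was left out. In young mice it was −0.86 and became 0.26 without the first young control pool, over a range of −1.95 to 0.26 with each pool left out. In aged mice it was 0.45 and became −0.70 without the third aged antibiotic pool, over −0.70 to 0.91. Over both ages it was −0.21 and became 0.35 without the first young control and 0.03 without the second aged antibiotic pool, over −0.78 to 0.35. The age difference was −1.87 and passed with cells other than microglia as denominator. Raw UMIs against Ly6CHigh were −0.20 with pools of at least 20 cells, where too few pools remained for the test to pass. Against Ly6CLow they passed at −0.75 with pools of at least 5 cells and at −0.86 without the second aged control pool, over −0.86 to −0.24 with each pool left out. The Dusp2 call in aged mice ended (0 genes) with 0.5 added, pools of at least 5, or means of log values, and over both ages (0 genes) also with no filter, pools of at least 20, array weights, scaled pools or cluster 4 cells only, the last chosen after seeing the data. Leaving out 1 pool gave 0 to 38 genes in young, 0 to 8 in aged, 0 to 37 over both ages and 0 to 3 for their difference. It gave 0 to 1 antibodies in aged, 0 to 2 over both ages, 0 to 2 for the difference and 0 to 1 for age. With a minimum of 10 tags in 3 pools, 1 antibody passed in aged mice and 0 for age. With 0.5 added, 122 genes were higher and 328 lower than in Ly6CHigh, and 194 and 278 against Ly6CLow. With pools of at least 5 cells 134 and 181 were higher. The causes were not tested. The alternative with cells of at least 1000 raw UMIs was also chosen after seeing the data. Depth limits the contrasts, since 3 pools had 7 or 8 neutrophils and the shallow aged cells hold a median of 523 UMIs.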
